A study of Mus musculus with 9 samples.

Results

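Respiratory complex I was followed in the ageing kidney through 43 genes whose symbol starts with Nduf, out of 19938 genes measured on Affymetrix Mouse Gene ST arrays. A gene was taken where a probe set carried exactly 1 symbol, and the brightest probe set over all 9 arrays stood for it. Of the 43 genes, 34 encode structural subunits of the complex, 7 encode assembly factors of the Ndufaf series, and Ndufa4 and Ndufa4l2 bear the name although Ndufa4 is now placed in cytochrome c oxidase. Kidneys of 5 wild type females at 96 weeks were compared with those of 4 wild type females at 14 weeks. All mice shared a mixed FVB/C57BL6 background and were perfused with cold saline. The methods name 5 mice for the arrays at each age, 9 arrays carry an age in the labels, and each array is taken as 1 mouse. The deposited values are log2 expression after the robust multi-array average (RMA), on which a difference of 1 is a 2-fold change (precision is limited by the 9 arrays). The tissue is whole kidney, in which fewer cells of a type and less RNA per cell cannot be told apart.

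Complex I takes electrons from NADH and hands them to ubiquinone, and it pumps protons across the inner mitochondrial membrane while it does so. It has the shape of an L, with a matrix arm that holds the flavin and the iron-sulfur clusters and a membrane arm that holds the proton pumps. Its subunits come from nuclear and from mitochondrial DNA, and assembly factors join them in modules. Kidney tubules spend much ATP on the reabsorption of salt and solutes, and proximal tubule and thick ascending limb cells are dense in mitochondria.

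At 96 weeks 10 of the 43 genes were higher and 0 were lower at an adjusted p under 0.05 (limma, Benjamini-Hochberg over all genes). These 10 genes were Ndufa11, Ndufa2, Ndufb7, Ndufv1, Ndufb2, Ndufs6, Ndufa3, Ndufs5, Ndufv3 and Ndufa8, all structural subunits. Among all genes 4.31% were higher and 2.4% were lower by the same rule. Most Nduf genes gave bright signals, with a median at the 92.5th percentile of all genes. Of the 4964 genes with a mean log2 expression of 8 or more, 11.0% were higher, against 9 of the 40 Nduf genes in that range. At an unadjusted p under 0.05 from limma, 20 Nduf genes were higher and 0 were lower, beside 13.3% and 15.3% of all genes. By this rule 27.1% of genes with a mean of 8 or more were higher.

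The log2 fold changes (96 weeks minus 14 weeks) of the 43 genes ran between -0.23 for Ndufaf4 and 0.73 for Ndufa11, and 41 of them were above 0. Above 0 were also 8645 of all 19938 genes, and 3165 of the 4964 genes with a mean of 8 or more. The median of the 43 genes was 0.15, beside -0.03 over all genes and 0.05 over genes with a mean of 8 or more. It was 0.088 without replicate 4 at 14 weeks and 0.086 after a repeated quantile normalization. After a cyclic loess between arrays 34 of the log2 fold changes were above 0, and after the repeated quantile normalization 33. In these settings, in this order, the median over all genes was -0.004 and -0.016. In 13 genes every 96 week old kidney lay above every 14 week old kidney, as in 7.49% of all genes. The reverse held for Ndufaf4 alone, and for 5.79% of all genes. Of the 4964 genes with a mean of 8 or more, 894 had every old kidney above every young one, and 273 had the reverse. The count of 10 changed when single arrays were left out, and the share of all genes changed as well. It was 5 without replicate 3 and 4 without replicate 4 at 14 weeks, where 2.18% and 1.88% of all genes were higher. It was 6 without replicate 2 and 6 without replicate 5 at 96 weeks, beside 2.65% and 2.9% of all genes. Without replicate 3 at 96 weeks it was 12, beside 3.77%.

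**Figure D1:**
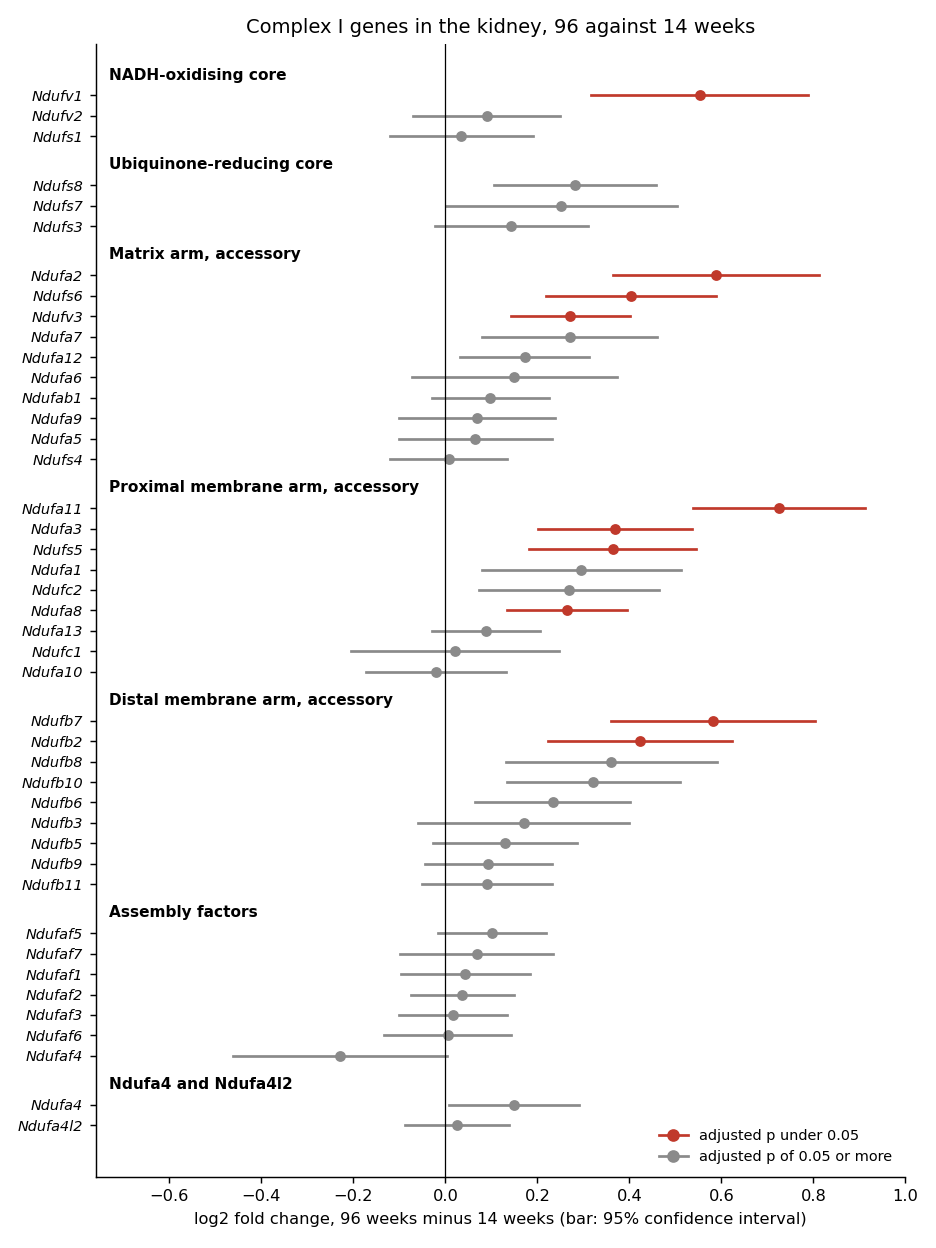
Log2 fold change of each Nduf gene, 96 weeks (n = 5) minus 14 weeks (n = 4), with its 95% confidence interval from limma, sorted within the role of the gene; red marks an adjusted p under 0.05. The 10 red genes all lie above 0, and Ndufaf4 at -0.23 lies lowest.

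In the NADH-oxidising part of the matrix arm, 1 of 3 core subunits was higher. Ndufv1, which binds NADH and the flavin, had 10.19, 10.38, 9.92, 9.98 and 10.19 in the 96 week old kidneys (replicates 1 to 5), against 9.68, 9.64, 9.68 and 9.32 in the 14 week old kidneys (replicates 1 to 4). The ages did not overlap, and replicate 4 was the lowest of the young. The log2 fold change was 0.55 with a standard error (SE) of 0.11, or 1.47-fold (adjusted p = 0.018 from limma). Its partners in electron transfer did not pass. Ndufv2 had a log2 fold change of 0.09 (95% interval -0.07 to 0.25), and Ndufs1, the large subunit with several iron-sulfur clusters, had 0.03 (95% interval -0.12 to 0.19). The values of both genes overlapped between the ages.

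Core subunits of the ubiquinone-reducing module were represented by 3 genes, none of which passed. Ndufs8, a carrier of iron-sulfur clusters, came closest. It had 9.10, 9.03, 8.74, 8.93 and 9.08 at 96 weeks, against 8.70, 8.82, 8.65 and 8.62 at 14 weeks. Replicate 3 at 96 weeks fell among the young kidneys, and the log2 fold change was 0.28 (SE 0.079, adjusted p = 0.060 from limma). Without that kidney Ndufs8 passed, at 0.34 (adjusted p = 0.020 from limma). Ndufs7, which holds the last iron-sulfur cluster before ubiquinone, stood at 0.25 on the log2 scale (adjusted p = 0.17), and Ndufs3 had 0.14 (adjusted p = 0.23). Replicate 4 at 14 weeks was far below the other young kidneys in both, at 8.44 for Ndufs7 and 10.52 for Ndufs3.

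Accessory subunits surround the core and are thought to stabilise it. In the matrix arm 3 of 10 were higher and the median log2 fold change was 0.16. Ndufa2, a small subunit with a thioredoxin-like fold, had 10.31, 10.00, 10.04, 10.35 and 10.29 at 96 weeks, against 9.79, 9.58, 9.69 and 9.38 at 14 weeks. The ages did not overlap, and replicate 4 was again the lowest young kidney. Its log2 fold change was 0.59 (SE 0.10, adjusted p = 0.012 from limma), or 1.5-fold.

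Ndufs6, a zinc-binding subunit that joins late in assembly, had 10.09, 9.88, 9.81, 10.14 and 10.02 at 96 weeks, against 9.72, 9.63, 9.57 and 9.43 at 14 weeks. The ages were apart here too, by less, and the log2 fold change was 0.40 (SE 0.083, adjusted p = 0.023 from limma). Ndufv3, a small subunit beside the NADH-binding site, had 9.51, 9.55, 9.36, 9.47 and 9.57 at 96 weeks, against 9.23, 9.25, 9.28 and 9.11 at 14 weeks. Replicate 3 was the lowest old kidney and still lay above every young one. Ndufv3 rose by 0.27 (SE 0.058, adjusted p = 0.026 from limma). Ndufs6 did not pass without replicate 3 or 4 at 14 weeks (adjusted p 0.058 and 0.067 from limma). Ndufv3 did not pass without replicate 1 or 4 at 14 weeks or replicate 1, 2 or 5 at 96 weeks (adjusted p 0.052 to 0.071). After a repeated quantile normalization Ndufv3 did not pass either.

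The other 7 matrix arm subunits had log2 fold changes between 0.01 and 0.27 and did not pass. Ndufa7 headed them at 0.27 (adjusted p = 0.082), with ages that did not overlap. At the low end stood Ndufs4, whose loss gives mice a disease like Leigh syndrome, with 10.62, 10.56, 10.47, 10.58 and 10.71 at 96 weeks, against 10.66, 10.58, 10.58 and 10.51 at 14 weeks. The ages of Ndufs4 were intermingled, and its log2 fold change of 0.01 had a 95% interval from -0.12 to 0.13.

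Around the proximal part of the membrane arm, next to the matrix arm, 4 of 9 accessory subunits were higher, with a median log2 fold change of 0.27. Ndufa11, a membrane subunit at the contact with complex III in respiratory supercomplexes, had 10.25, 10.22, 10.03, 10.35 and 10.36 at 96 weeks. The 14 week old kidneys had 9.63, 9.62, 9.50 and 9.33. The gap between the lowest old and the highest young kidney exceeded the SD within either age, and Ndufa11 rose by 0.73 on the log2 scale, or 1.65-fold (SE 0.084, adjusted p = 0.0031 from limma). A further probe set of Ndufa11 gave 0.66, again with no overlap. RefSeq lists copies of Ndufa11 (Ndufa11b), Ndufs6 (Ndufs6b) and Ndufs5 (Ndufs5-ps). Probe sequences were not used here, so signals of gene and copy could not be kept apart.

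Ndufa3, a small subunit of the inner membrane, had 9.87, 9.89, 9.69, 9.84 and 9.94 at 96 weeks, against 9.64, 9.54, 9.42 and 9.31 at 14 weeks. Only a narrow gap separated replicate 3 of the old from replicate 1 of the young, and the log2 fold change was 0.37 (SE 0.075, adjusted p = 0.021 from limma). Ndufs5 and Ndufa8 are subunits on the side of the intermembrane space, with paired cysteines that form disulfides. Ndufs5 had 9.83, 9.90, 9.64, 9.71 and 9.88 at 96 weeks, against 9.53, 9.57, 9.31 and 9.30 at 14 weeks. Its ages were just apart, and it rose by 0.36 (SE 0.082, adjusted p = 0.031 from limma). Ndufa3 did not pass without replicate 3 or 4 at 14 weeks (adjusted p 0.059 and 0.058), and Ndufs5 not without either of these or without replicate 1, 2 or 5 at 96 weeks (adjusted p 0.062 to 0.087). A probe set shared by Ndufs5 and its pseudogene Ndufs5-ps, fitted apart, gave 0.36 as well (SE 0.064, adjusted p = 0.013 from limma).

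Ndufa8 had 9.24, 9.27, 9.08, 9.24 and 9.24 at 96 weeks, against 9.02, 9.03, 8.90 and 8.86 at 14 weeks. The old kidneys agreed closely except for replicate 3, which lay just above the highest young kidney. The log2 fold change of Ndufa8 was 0.26 (SE 0.058, adjusted p = 0.029 from limma). After a cyclic loess between arrays, and after a repeated quantile normalization, Ndufa8 did not pass, nor without replicate 3 or 4 at 14 weeks or any 1 array at 96 weeks other than replicate 3 (adjusted p 0.0503 to 0.080). The remaining 5 subunits of the proximal membrane arm had log2 fold changes between -0.02 and 0.30. Ndufc2 stood at 0.27 (SE 0.088, adjusted p = 0.089 from limma), with ages that did not overlap, and Ndufa1 at 0.30 (SE 0.097, adjusted p = 0.091). Among the low ones was Ndufa10, which resembles nucleoside kinases, at -0.02 (95% interval -0.17 to 0.13). Ndufc1 had 0.02, and its replicate 3 at 96 weeks, at 8.71, was the lowest of all 9 kidneys.

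Among accessory subunits of the distal membrane arm 2 of 9 were higher, with a median log2 fold change of 0.23. Ndufb7, which faces the intermembrane space and carries paired cysteines, had 9.90, 9.61, 9.53, 9.78 and 9.83 at 96 weeks, against 9.20, 9.34, 9.15 and 8.91 at 14 weeks. The ages did not overlap, and Ndufb7 rose by 0.58, or just under 1.5-fold (SE 0.10, adjusted p = 0.012 from limma). Ndufb2, a small subunit with 1 membrane helix, had 8.10, 8.13, 7.97, 8.22 and 8.28 at 96 weeks, against 7.93, 7.67, 7.76 and 7.51 at 14 weeks. Replicate 3 of the old and replicate 1 of the young nearly touched, and the log2 fold change was 0.42 (SE 0.090, adjusted p = 0.025 from limma). Ndufb2 did not pass without replicate 2, 3 or 4 at 14 weeks or replicate 2 or 5 at 96 weeks (adjusted p 0.0505 to 0.067). It also did not pass after a repeated quantile normalization (adjusted p = 0.0585 from limma).

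The other 7 distal subunits had log2 fold changes between 0.09 and 0.36, all above 0 and none past the threshold. Ndufb8 had 10.38, 10.59, 10.31, 10.55 and 10.67 at 96 weeks, against 10.27, 10.29, 10.13 and 9.86 at 14 weeks. The ages were apart by a narrow margin, and the log2 fold change of 0.36 had an SE of 0.10 (adjusted p = 0.063 from limma). Ndufb10, at 0.32 (SE 0.085), lay just outside the threshold (adjusted p = 0.0504), with replicate 3 at 96 weeks (9.84) below replicate 1 at 14 weeks (9.88). Ndufb11 depended on the probe set: the brighter one gave 0.09, and a dimmer one gave 0.37, with ages that overlapped in both. Shared probe sets of Ndufb4 and its copy Ndufb4b gave 0.18 in each of 2 cases (adjusted p = 0.16 in both, from limma with these probe sets kept).

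**Figure D2:**
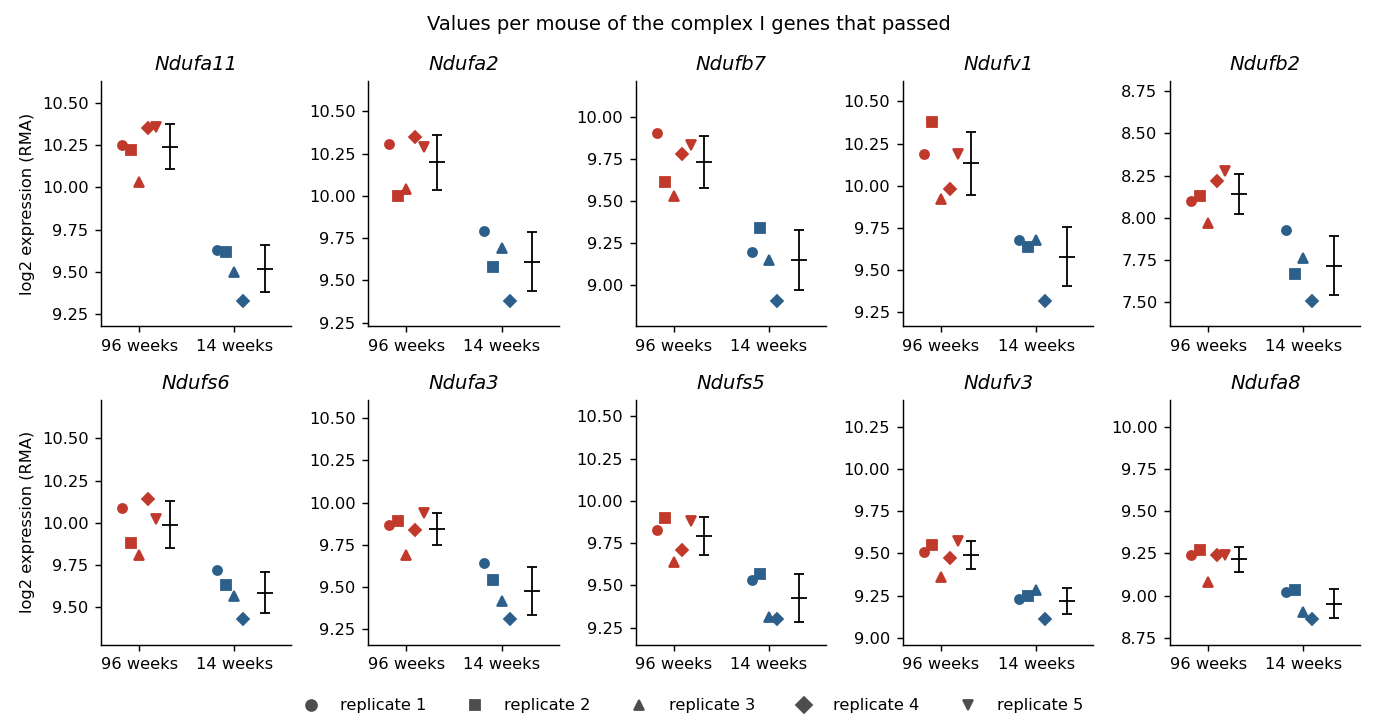
RMA log2 expression of the 10 Nduf genes that passed, 1 point per mouse, 5 at 96 weeks (red) and 4 at 14 weeks (blue), with mean and SD beside them; every panel spans the same number of log2 units. No panel shows an old kidney below a young one, and replicate 4 at 14 weeks is the lowest point in each.

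Of the 7 assembly factors 0 passed at an adjusted p under 0.05, beside 4.31% of all genes higher and 2.4% lower. At an unadjusted p under 0.05 from limma 0 passed as well, beside 13.3% of all genes higher and 15.3% lower. With 7 genes, a count of 0 cannot be told from these shares. The median log2 fold change of the 7 was 0.04. This median changed sign with the scaling, to -0.03 after a cyclic loess and -0.05 after a repeated quantile normalization. Ndufaf4, which works with Ndufaf3 early in assembly, had 10.20, 10.36, 9.91, 10.43 and 10.45 at 96 weeks, against 10.50, 10.46, 10.45 and 10.58 at 14 weeks. Each old kidney lay below each young one, though replicate 5 of the old and replicate 3 of the young were equal to 2 decimals. The log2 fold change was -0.23 (SE 0.11, adjusted p = 0.18 from limma). The other 6, Ndufaf1, Ndufaf2, Ndufaf3, Ndufaf5, Ndufaf6 and Ndufaf7, lay between 0.00 and 0.10, and Ndufaf3 and Ndufaf6 were below 0 after a cyclic loess or a repeated quantile normalization. Whether assembly factors and subunits differed from each other was not tested.

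Ndufa4 had 12.49, 12.52, 12.39, 12.50 and 12.65 at 96 weeks, against 12.44, 12.39, 12.37 and 12.23 at 14 weeks. The ages overlapped, and the log2 fold change of 0.15 did not pass (95% interval 0.01 to 0.29, adjusted p = 0.16 from limma). Its paralog Ndufa4l2, known as a hypoxia-induced gene, was the dimmest of the 43, at the 36.9th percentile of all genes. Its log2 fold change was 0.03 (95% interval -0.09 to 0.14).

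At the thresholds of the methods, at least 1.5-fold with an unadjusted p under 0.05, Ndufa11 and Ndufa2 were higher, beside 1.28% of all genes. The methods' t-test gave the same 2 genes at these thresholds. With that test 20 Nduf genes were higher at a p under 0.05 before adjustment, beside 11.7% of all genes. After Benjamini-Hochberg adjustment Ndufa11 alone was, beside 1.37% of all genes.

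The promoters of the Nduf genes were read for letters that known regulators of respiratory genes bind. The factors looked for were NRF1 (GCGCANGCGC, where N is any base), GABPA (CCGGAAG), the estrogen-related receptors (AAGGTCA) and YY1 (AAGATGGCG), each on both strands in the 250 bases before the start of the gene. RefSeq windows (GRCm38.p6) were found for 38 of the 43 genes, 40 windows in all. The NRF1 letters were in 7 of the 40 windows (17.5%), beside 3.74% of all 32851 windows. They stood before 4 of the 9 genes with a window that rose, Ndufa11, Ndufs6, Ndufs5 and Ndufa8, and in 3 of 31 windows of the others, those of Ndufa5 and Ndufaf4. None of the searched motifs lies within another. The median share of G and C was 57.8% in windows of Nduf genes and 52.4% in all windows.

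The last 150 bases before the start are shown for these 4 genes and for Ndufaf4, the gene whose old kidneys lay below the young, so that the place of the letters can be seen. Capitals mark the NRF1 letters, and each run is on the strand of the gene, 5′ to 3′, and ends at the base before the start. Ndufa11 lies at chr17:56717612-56717761 (plus strand), Ndufs6 at chr13:73328483-73328632 (minus), Ndufs5 at chr4:123718187-123718336 (minus), Ndufa8 at chr2:36049339-36049488 (minus) and Ndufaf4 at chr4:24897933-24898082 (plus).
Ndufa11: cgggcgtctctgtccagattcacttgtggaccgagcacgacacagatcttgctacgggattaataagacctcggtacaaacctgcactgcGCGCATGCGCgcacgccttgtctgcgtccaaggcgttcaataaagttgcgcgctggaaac
Ndufs6: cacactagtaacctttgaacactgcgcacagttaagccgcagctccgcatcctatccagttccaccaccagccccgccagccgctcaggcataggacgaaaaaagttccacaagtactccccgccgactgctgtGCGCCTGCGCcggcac
Ndufs5: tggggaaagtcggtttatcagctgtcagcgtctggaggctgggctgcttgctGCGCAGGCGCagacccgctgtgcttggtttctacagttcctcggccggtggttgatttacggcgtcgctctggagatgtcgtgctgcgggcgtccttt
Ndufa8: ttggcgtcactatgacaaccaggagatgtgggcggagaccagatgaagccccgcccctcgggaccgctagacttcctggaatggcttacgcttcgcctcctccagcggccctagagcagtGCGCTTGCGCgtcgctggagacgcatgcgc
Ndufaf4: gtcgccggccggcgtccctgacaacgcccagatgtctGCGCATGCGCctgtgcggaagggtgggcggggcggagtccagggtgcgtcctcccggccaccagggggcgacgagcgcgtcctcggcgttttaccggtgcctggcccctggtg

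Counted back from the start, the letters began 60 bases before Ndufa11, 16 before Ndufs6, 98 before Ndufs5, 30 before Ndufa8 and 113 before Ndufaf4. Ndufa11 and Ndufaf4 share the same 10 letters. Their log2 fold changes were 0.73 and -0.23, and that of Ndufaf4 did not pass (adjusted p = 0.18 from limma). Whether the letters went with the fold changes was not tested. Beside 6.91% of all windows, the GABPA letters were in 4 of the 40, those of Ndufb7, Ndufaf1, Ndufb6 and Ndufs3. The estrogen-related receptor letters were in 2 windows, Ndufb2 and Ndufs5 (5.0%, beside 4.08%), and the YY1 letters in 0 (beside 0.606%). A match is a string of letters and no measure of binding. The 10 genes that rose spanned a median of 5982 bases from start to end, and the other 33 genes 8831 bases, with ranges of 2256 to 13015 and 1850 to 106064 bases that overlapped.

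Single arrays stood out over many Nduf genes at once. Each gene was centred on its mean over the 9 arrays, and the 43 genes were averaged on each array. The means were 0.13, 0.12, -0.06, 0.09 and 0.17 in replicates 1 to 5 at 96 weeks, against -0.05, -0.06, -0.09 and -0.23 in replicates 1 to 4 at 14 weeks. Replicate 3 at 96 weeks thus lay among the young kidneys, and was the lowest old kidney in 37 of the 43 genes. Replicate 4 at 14 weeks was the lowest young kidney in 32 of 43, and in 10 of the 10 genes that rose. The mean was 0.09 ± 0.09 at 96 weeks (SD, n = 5) and -0.11 ± 0.09 at 14 weeks (SD, n = 4).

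Other genes with a mean of 8 or more had array means between -0.005 and 0.08 at 96 weeks and between -0.07 and -0.02 at 14 weeks. The upper quartile of all genes was 8.01 to 8.08 at 96 weeks and 7.92 to 7.98 at 14 weeks. Without both replicate 3 at 96 weeks and replicate 4 at 14 weeks, left out after their values were seen, 9 Nduf genes were higher and 0 lower, beside 1.76% of all genes higher, and 22 did not overlap between the ages, beside 20.2% of all genes. Centring each array on its median left 10 genes higher.

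**Figure D3:**
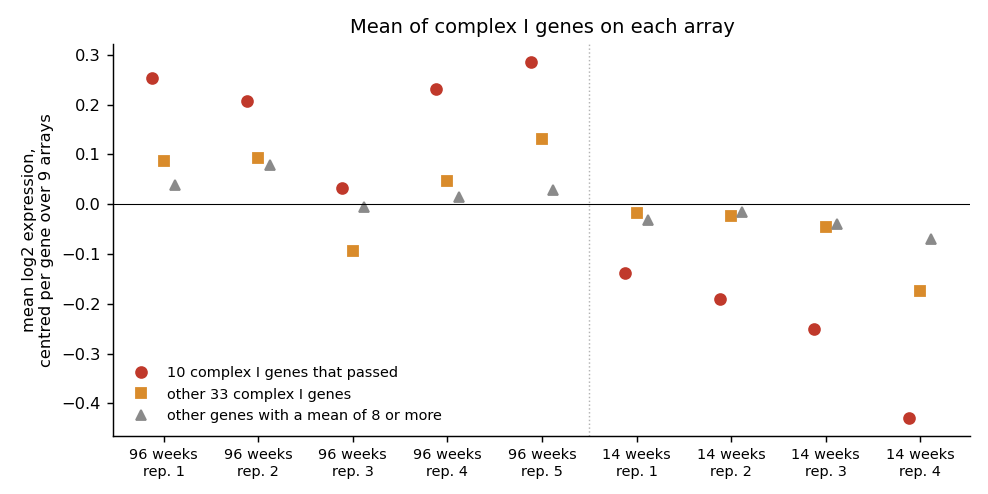
Mean log2 expression per array, each gene centred on its mean over the 9 arrays, for the 10 Nduf genes that passed (red), the other 33 (orange) and other genes with a mean of 8 or more (grey), with 96 weeks left of the dotted line. Replicate 3 at 96 weeks is low for its age in all 3 sets, and replicate 4 at 14 weeks is lowest of all in each.

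Markers of cells in the sample were set beside these values as sums of linear expression. Of 8 proximal tubule markers 0 passed in either direction, and their sums were 20540 to 26690 at 96 weeks and 24420 to 25410 at 14 weeks. Thick limb and distal tubule markers likewise had 0 of 8 that passed, with sums of 18050 to 21620 at 96 weeks and 19820 to 20630 at 14 weeks. Of 10 macrophage and dendritic cell markers 3 were higher, with sums of 2124 to 5272 at 96 weeks and 1333 to 1540 at 14 weeks. Of 10 lymphoid markers 2 were higher, the plasma cell genes Jchain (by 5.02) and Igha (by 3.06), and 8 B, plasma and T cell markers did not pass. The lymphoid sums, in which the brightest genes weigh most, were 1543 to 4471 at 96 weeks and 556.8 to 567.9 at 14 weeks. By the same rule 4.31% of all genes were higher. Adipocyte and muscle markers had 0 of 7 that passed and 7 of 7 log2 fold changes below 0, as had 11293 of all 19938 genes. Their sums were 371.3 to 403.4 at 96 weeks and 422.4 to 454.1 at 14 weeks and did not overlap. These are dim signals. Mean log2 values of the 7 genes were 4.40 to 6.56 at 96 weeks and 4.45 to 6.73 at 14 weeks, beside array medians over all genes of 6.54 to 6.59. Sums of the collecting duct, podocyte and endothelium, and fibroblast and smooth muscle lists overlapped between the ages, and 0 of their 7, 7 and 8 genes were higher. A gene was lower in the second and in the last of these lists. Wt1 of podocytes fell by 0.37 (adjusted p = 0.024 from limma, and 0.062 to 0.066 without replicate 1, 2 or 3 at 14 weeks), and Myh11 of smooth muscle by 0.48 (adjusted p = 0.019 from limma, and 0.054 without replicate 4 at 14 weeks). The macrophage sum was 4697 in replicate 3 and 5272 in replicate 4 at 96 weeks, and replicate 3 was low in Nduf genes while replicate 4 was not. The part of these cell types in the Nduf values was not tested.

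Nuclear subunits of the other oxidative phosphorylation complexes, II to V, showed higher values at 96 weeks as well, in 13 of 39 genes, with 0 lower and a median log2 fold change of 0.18. By the same rule 4.31% of all genes were higher, and 11.0% of genes with a mean of 8 or more. Atp5g2, a gene of the proton-carrying ring of ATP synthase, had 10.82, 10.72, 10.75, 10.85 and 10.81 at 96 weeks, against 10.00, 10.07, 10.02 and 9.91 at 14 weeks. The ages were far apart, and Atp5g2 rose by 0.79 (SE 0.052, adjusted p = 0.00020 from limma). Uqcr11 of complex III rose by 0.65, Atp5e and Atp5d of ATP synthase by 0.62 and 0.59, Sdhd of complex II by 0.58 and Cox4i1 of complex IV by 0.48. Uqcr11 did not pass without replicate 4 at 14 weeks (adjusted p = 0.052). The lowest log2 fold changes of this list were -0.06 for Cox7b and -0.04 for Uqcrb. Leaving out any 1 array except replicate 3 at 96 weeks gave 7 or 8 genes higher (1.88% to 3.56% of all genes). Leaving out that one gave 15 (3.77%). The count was 8 after a cyclic loess (2.82% of all genes) and 8 after a repeated quantile normalization (2.43%). It was 6 with the methods' t-test (1.37%) and 4 with the replicate number as a block (1.4%).

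Proteins of the mitochondrial ribosome, which translates the subunits of mitochondrial DNA, were higher in 16 of 77 genes and lower in 0, with a median of 0.16. Among all genes 4.31% were higher. Mrpl23 rose by 0.70 (SE 0.064, adjusted p = 0.0011 from limma), Mrpl14 by 0.55 and Mrps18b by 0.49. Mrpl14 did not pass without replicate 3 or 4 at 14 weeks (adjusted p 0.055 and 0.054). At the low end stood Mrpl32 at -0.14 and Mrpl39 at -0.12. The count of ribosomal genes that were higher was 6 to 11 without any 1 array other than replicate 3 at 96 weeks, and 16 without that one. It was 9 after a cyclic loess and 9 after a repeated quantile normalization, where the median was 0.10 and 0.07, and 4 with the methods' t-test and 4 with the block. The shares of all genes in these settings were those given for complexes II to V. Of the complex I subunits that mitochondrial DNA encodes, 1 was measured alone, ND3, with a log2 fold change of -0.14 (95% interval -0.33 to 0.06, adjusted p = 0.31 from limma).

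Complex I assembly factors with names other than Ndufaf had 0 of 11 genes past the threshold and a median log2 fold change of 0.08. By that threshold 4.31% of all genes were higher and 2.4% lower. Tmem186 at 0.24 and Ecsit at 0.20 were the highest, and Tmem126b at -0.01 and Tmem70 at 0.02 the lowest. Makers of iron-sulfur clusters, the cofactors of the matrix arm, had 0 of 11 past the threshold and a median of 0.10. Glrx5, which passes clusters on, had 0.41 (adjusted p = 0.058 from limma, and 0.034 without replicate 3 at 96 weeks), and Nfs1, which supplies their sulfur, had 0.31 (adjusted p = 0.13). Iba57 at -0.16 and Lyrm4 at -0.08 were the lowest of this list.

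Regulators of mitochondrial genes, 16 in all, had 0 higher and 2 lower, and a median of 0.01. Among all genes 2.4% were lower, and 5.79% had every old kidney below every young one. Ppargc1a, a coactivator of mitochondrial biogenesis, had 10.92, 10.75, 10.44, 10.71 and 10.80 at 96 weeks, against 11.21, 11.22, 11.08 and 11.36 at 14 weeks. The ages did not overlap, and Ppargc1a fell by 0.49 (SE 0.094, adjusted p = 0.017 from limma, and 0.055 without replicate 4 at 14 weeks). Esrrg, the estrogen-related receptor gamma, had 9.77, 9.86, 9.52, 9.42 and 9.47 at 96 weeks, against 9.89, 10.05, 9.93 and 10.03 at 14 weeks. The ages were again apart, narrowly, and Esrrg fell by 0.37 (SE 0.094, adjusted p = 0.046 from limma). Esrrg kept its direction in 19 of 19 alternatives and missed the threshold in 12, among them each that left out 1 array other than replicate 2 at 96 weeks (adjusted p 0.0504 to 0.12). Gabpb1, a partner of GABPA, stood at 0.38 (adjusted p = 0.14), and Nrf1 itself had -0.04.

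**Figure D4:**
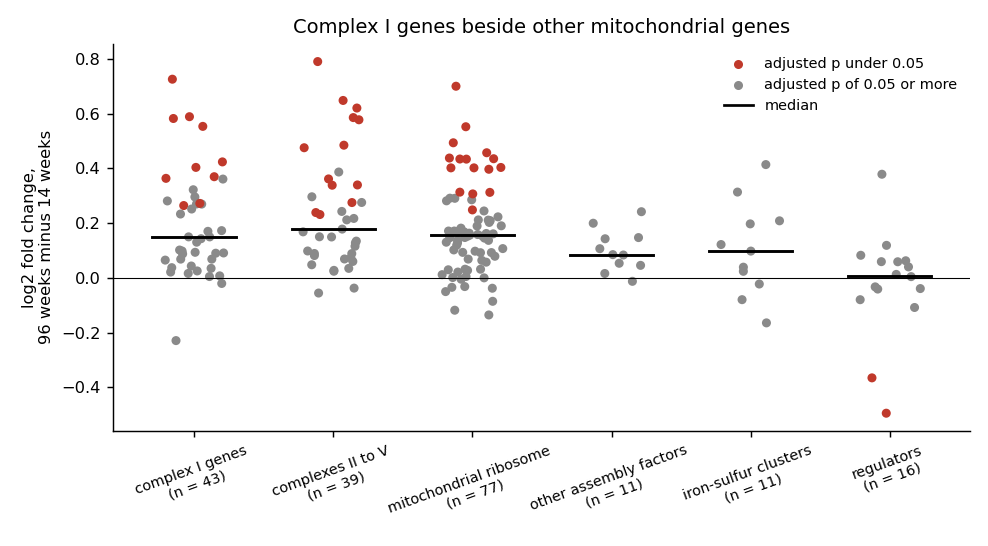
Log2 fold change, 96 weeks minus 14 weeks, of the Nduf genes and of 5 other lists of mitochondrial genes, 1 point per gene, with the median as a bar; red marks an adjusted p under 0.05 (limma). Medians are 0.15 for Nduf genes, 0.18 for complexes II to V and 0.16 for the mitochondrial ribosome, and the 2 red points among the regulators lie below 0.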

How the data were processed

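RNA of whole kidneys was hybridised to 9 arrays. The authors ran RMA with quantile normalization (Affymetrix Power Tools 1.12.0), and the deposited file holds a log2 value for each of 35557 probe sets. Background signal per probe set is not given in the sources used here. By the platform annotation, 21789 probe sets had 1 gene symbol, 1621 had several and 12147 had none. The single-symbol probe sets gave 19938 genes. Correlations between arrays were 0.9785 to 0.9919, and no 2 arrays were identical.

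Values at 96 and 14 weeks were fitted over all genes in limma 3.58.1 (lmFit, then eBayes, under R 4.3.3), with Benjamini-Hochberg adjustment and a threshold of 0.05. Python 3.11.15 with pandas 2.3.3 was used for summaries. The fit was tested on simulated arrays. Genes with values in the text are those that passed, the 6 highest and 6 lowest log2 fold changes, the core subunits, Ndufa4 and Ndufa4l2. From other lists they are some of the genes that passed and some of the extremes. Ndufa7, Ndufb8, Ndufb10, Ndufb11, Ndufb4, Ndufa1, Ndufc2 and Nrf1 were added after their values were seen. The genes and lists were chosen with earlier results of these data known. Alternatives covered the methods' t-test, array weights, scaling, dim genes (a mean under the 30th percentile) left out, other probe sets, a block on the replicate number, and arrays left out. Genes with no single-symbol probe set were left out of the counts, and Ndufb4, which has only probe sets shared with Ndufb4b, was fitted in 1 alternative.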

Additional observations from a re-analysis of the deposited data

Results flagged for a closer look

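In groups of 4 or 5 kidneys, single values far from the rest of their age (Dixon's criterion at 95%) were found in 7 of 48 groups looked at. The criterion flags about 1 in 20 independent groups, but these groups share the same 9 arrays and are not independent. All 7 were low values. At 96 weeks replicate 3 stood apart in Ndufa8 (9.084, nearest 9.24) and in Ndufc1 (8.706, nearest 9.092). At 14 weeks replicate 4 stood apart in Ndufv1 (9.322, nearest 9.636), Ndufs3 (10.52, nearest 10.77) and Ndufs7 (8.439, nearest 8.801). Replicate 1 at 14 weeks stood apart in Ndufa4l2 (5.781, nearest 5.933) and Ndufaf6 (7.163, nearest 7.245). In both genes 2 of the other 14 week old kidneys had the same deposited value, which narrows the spread that the criterion uses.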

How the results depend on the processing

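In the 20 alternatives 0 Nduf genes were lower at an adjusted p under 0.05 (limma or the methods' t-test). The count of 10 higher (4.31% of all genes) was 12 with array weights (5.02% of all genes), 13 with a filter on dim genes (7.7%), 9 after cyclic loess (2.82%), 7 after a repeated quantile normalization (2.43%), 1 with the methods' t-test after adjustment (1.37%) and 4 to 12 without single arrays (1.88% to 3.77%). With the replicate number as a block, in which replicate 5 at 96 weeks carries no weight, it was 3 (1.4%). Deviations of same-numbered kidneys from the means of their ages correlated between -0.04 and 0.08. Values from so few arrays cannot decide whether same-numbered arrays were handled together. The count of genes whose ages did not overlap, 14 (13 above and 1 below, 13.3% of all genes in both directions), was 22 without replicate 4 at 14 weeks and replicate 3 at 96 weeks (chosen after seeing the data, 20.2%) and 28 without replicates 3 and 4 at 96 weeks (22.9%); fewer arrays make an overlap less likely. The median log2 fold change was 0.09 to 0.19 in all alternatives. Ndufa11 passed in 19 of 19 (0.66 to 0.78), Ndufv1 in 18, Ndufa2 and Ndufb7 in 17 each, and Ndufa8 in 9. Ndufs8 passed in 4. Log2 fold changes near 0 changed sign, and the cause was not tested. In the same pair of settings with arrays left out together, Ndufa10 was 0.0334 and 0.0587. After cyclic loess and repeated quantile normalization, in this order, Ndufaf3 was -0.0472 and -0.067, Ndufaf6 -0.0266 and -0.0578, Ndufc1 -0.0399 and -0.0581, Ndufs1 -0.0019 and -0.0136, and Ndufs4 -0.0335 and -0.043. With the block Ndufaf6 was -0.016, Ndufc1 -0.0154 and Ndufs4 -0.0226. Without single arrays the ranges were -0.0612 to 0.0268 for Ndufa10, -0.0142 to 0.0424 for Ndufa4l2, -0.01 to 0.0439 for Ndufaf3, -0.0204 to 0.0438 for Ndufaf6, -0.0191 to 0.116 for Ndufc1, -0.0133 to 0.065 for Ndufs1 and -0.0226 to 0.0364 for Ndufs4.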

Other observations

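Some Nduf genes had the same deposited value on several arrays. Ndufaf7 had 8.7274 on 5 arrays (2 of 5 at 96 weeks, 3 of 4 at 14 weeks). Ndufa4l2 had 5.9329 on 4 arrays (2 of 5 at 96 weeks, 2 of 4 at 14 weeks). Ndufa12 had 8.8934 and Ndufaf2 had 8.321 on 3 arrays each, and Ndufa10, Ndufaf6, Ndufs4 and Ndufs7 each had a value shared by 2 arrays.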
